A study of Mus musculus with 30 samples.

Results

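The genes described here are 10 components of the Hippo pathway that act on the restraint of Yap and Taz, 9 of them known mainly as restraints and Ajuba as a protein that holds Lats back: the angiomotins Amot, Amotl1 and Amotl2, the kinases Lats1 and Lats2, the Mst kinases Stk3 and Stk4 with their adaptor Sav1, Merlin (Nf2) and the LIM protein Ajuba. They were chosen by name, and all 10 were found among the 35973 genes of the blebbistatin RNA table and among the 35972 genes of the Y27632 table. Each of them passed the filter on low values. In the 5 lists of chromatin sites that the authors deposited, 22 sites were annotated to 7 of these genes, and none to Lats1, Stk3 or Nf2.

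The cells were primary fibroblasts from mouse tail tendon, labelled wildtype in all groups, and were treated in medium with 0.1% serum. For RNA, 3 libraries each came from cells given the solvent DMSO, blebbistatin at 10 µM, which inhibits non-muscle myosin II, or Y27632 at 30 µM, a kinase inhibitor. Accessible chromatin was measured by ATAC-seq in 3 libraries of each of the same treatments. In a further experiment with 12 libraries, 3 per group, cells received neither drug, blebbistatin at 10 µM, doxycycline at 10 ng/mL, or blebbistatin and doxycycline. The labels name ATAC as the only protocol for genomic DNA but do not state the assay of these 12 libraries in particular, so whether their site values are accessibility is not given. Nor do they state what doxycycline induced, the length of any treatment, or whether replicates came from separate cultures or animals. The p-values below therefore measure only the spread between these libraries, which may be technical.

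In the Hippo pathway, the Mst kinases, held on the adaptor Sav1, activate the Lats kinases. Lats then phosphorylates Yap and Taz, which are retained in the cytoplasm or degraded and no longer act with Tead factors on their target genes. Merlin brings Lats to the plasma membrane, angiomotins bind Yap and Taz and also promote their phosphorylation, and Ajuba family proteins hold Lats in an inactive state at tensed junctions. Several of these genes, among them Amotl2, Ajuba and Lats2, are known as targets of Yap and Tead themselves.

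The bases just upstream of the annotated starts of Amotl2, Ajuba and Sav1 are shown because Amotl2 and Ajuba had the lowest log2 changes of the 10 genes with blebbistatin while Sav1 was not called there, and because each window holds the letters of the core that Tead factors bind. Each window ends at the base before the start and runs 5′ to 3′ on the gene's strand, from RefSeq on GRCm38.p6, with GGAATG or its reverse complement CATTCC in capitals.
Amotl2 upstream, chr9:102717554-102717803, plus strand: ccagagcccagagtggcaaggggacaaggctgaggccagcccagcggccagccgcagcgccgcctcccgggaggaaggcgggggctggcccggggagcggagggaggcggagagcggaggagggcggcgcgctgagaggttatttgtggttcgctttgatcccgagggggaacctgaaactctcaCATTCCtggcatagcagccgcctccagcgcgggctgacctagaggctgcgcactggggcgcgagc
Ajuba upstream, chr14:54577662-54577911, minus strand: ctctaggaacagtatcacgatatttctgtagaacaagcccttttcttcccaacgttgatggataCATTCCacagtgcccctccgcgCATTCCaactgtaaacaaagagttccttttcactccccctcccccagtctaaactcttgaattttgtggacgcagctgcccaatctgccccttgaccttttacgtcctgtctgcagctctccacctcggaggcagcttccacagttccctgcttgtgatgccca
Sav1 upstream, chr12:69987003-69987252, minus strand: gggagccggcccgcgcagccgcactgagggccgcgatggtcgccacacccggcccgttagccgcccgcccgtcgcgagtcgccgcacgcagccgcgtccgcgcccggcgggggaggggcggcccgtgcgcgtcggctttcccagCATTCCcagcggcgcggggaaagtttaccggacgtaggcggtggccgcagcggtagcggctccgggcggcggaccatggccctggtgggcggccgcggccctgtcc
The first base of the motif lies at -65 from the start in Amotl2 and at -106 in Sav1. Ajuba holds 2 copies, at -186 and -164. Of the 10 genes, 9 had a window in the reference, 11 windows in all, and GGAATG was found on either strand in these 3 windows only. Of all 32851 windows of the same 250 bases, 12.6% held it, and 1.02% held it 2 or more times. The letters GGAATT, marked in an Amotl2 site further below, were not counted in these windows, and the windows of Amot and Amotl1 hold them. The match of letters is a description and does not show binding.

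The RNA libraries held 23375386 to 37061737 reads in genes. All 15 markers of fibroblasts and tendon cells were at 1 CPM (reads of a gene scaled to the library total) or more in each group, and their sum was 38634 to 41763 CPM across the 9 libraries. They ran from Scx, at 2.10 to 3.26 CPM, to Col1a1, at 8904 to 10827. Tnmd was at 27.7 to 38.8 and Mkx at 33.7 to 42.7. The sums of other cell types were low beside this sum, but some of them moved with treatment. The 6 endothelial markers, of which 2 reached 1 CPM, summed to 118 to 119 CPM with DMSO, 78.5 to 88.5 with blebbistatin and 106 to 111 with Y27632, and most of this sum was Tek, at 74.3 to 115. The 7 macrophage and leukocyte markers, of which 5 reached 1 CPM and Cd3e was at 0 reads, summed to 58.3 to 64.7 with DMSO, 82.0 to 94.6 with blebbistatin and 76.3 to 86.6 with Y27632. With DMSO, blebbistatin and Y27632 the 4 Schwann cell markers summed to 7.23 to 8.84, 13.872 to 14.999 and 8.55 to 10.8 CPM, the 4 chondrocyte markers to 15.5 to 17.4, 25.0 to 27.7 and 23.2 to 26.0, and the 5 pericyte and smooth muscle markers to 85.2 to 94.8, 107 to 118 and 93.1 to 115. The 3 adipocyte markers, nearly all Fabp4, summed to 9.64 to 11.2, 10.2 to 12.0 and 6.54 to 7.82. Most of the pericyte and smooth muscle sum was Cspg4, at 69.6 to 98.2. Epithelial, skeletal muscle and red blood cell markers summed to less than 1 CPM in every library. The part of these cells in the changes below was not tested. In bulk libraries, fewer cells of a type and less RNA per cell cannot be told apart.

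Blebbistatin lowered the RNA of Amotl2, Ajuba, Amot, Lats2 and Lats1 and raised that of Amotl1 and Nf2, while Stk3, Stk4 and Sav1 were not called. The changes ran from a fall to 21.4% of the DMSO mean for Amotl2 to a rise to 113% for Amotl1. With limma, 7 of the 10 genes had a Benjamini-Hochberg adjusted p under 0.05, 2 higher and 5 lower. Of all 14882 genes tested, 53.0% were called, 26.1% higher and 26.9% lower, so that a call alone is common here. The size of the falls was less common. Amotl2, Ajuba and Amot were called lower by at least 1 on the log2 scale, as were 2.94% of all genes tested. The median log2 change of the 10 genes was -0.18, and that of all genes tested was 0.00.

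The angiomotins moved in different directions. Amotl2, a scaffold at cell junctions that binds Yap, had 21420, 21635 and 21423 normalised counts in the DMSO libraries and 4321, 4822 and 4652 with blebbistatin. The groups were far apart, at 21493 ± 123 (SD, n = 3) and 4598 ± 255. The log2 change was -2.23 (SE 0.038, limma adjusted p = 1.59e-12), and 0.262% of the genes tested had a lower one. Amot, the founding angiomotin, had 3282, 3487 and 2918 normalised counts with DMSO and 1386, 1461 and 1494 with blebbistatin. Its groups did not overlap either, and it fell by 1.15 on the log2 scale (SE 0.058, limma adjusted p = 6.77e-09). Amotl1, the other paralog, had 9180, 9037 and 8076 normalised counts with DMSO and 9661, 10112 and 10009 with blebbistatin. All 3 treated libraries lay above all 3 DMSO libraries, the lowest of them close to the highest DMSO library, and the log2 change was 0.18 (SE 0.045, limma adjusted p = 0.0046). Without the lowest DMSO library, replicate 3, the log2 change of Amotl1 was 0.12.

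The Lats kinases, which phosphorylate Yap and Taz directly, both fell with blebbistatin. Lats2 had 5434, 5830 and 5786 normalised counts with DMSO and 3244, 3304 and 3261 with blebbistatin, a fall to 57.5% of the DMSO mean with no overlap. Its log2 change was -0.80 (SE 0.035, limma adjusted p = 2.18e-09). Lats1 had 2696, 2704 and 2416 normalised counts with DMSO and 2115, 2078 and 2188 with blebbistatin. It fell to 81.6% of the DMSO mean, again with no overlap (log2 change -0.29, SE 0.047, limma adjusted p = 0.00021).

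Ajuba, the LIM protein that binds Lats and restrains it, fell together with the kinase that it binds. It had 2464, 2469 and 2406 normalised counts with DMSO and 820, 965 and 884 with blebbistatin, 36.4% of the DMSO mean. The groups were well apart, and the log2 change was -1.46 (SE 0.054, limma adjusted p = 5.05e-10).

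The core above Lats was not called with blebbistatin. Stk3 (Mst2) had 1456, 1408 and 1521 normalised counts with DMSO and 1475, 1401 and 1480 with blebbistatin. Its groups overlapped, and the 95% confidence interval of the log2 change ran from -0.11 to 0.09 (limma adjusted p = 0.882). Stk4 (Mst1) had 1151, 1153 and 1180 normalised counts with DMSO and 1138, 1070 and 1102 with blebbistatin. Sav1, the adaptor that joins Mst to Lats, had 2293, 2333 and 2314 with DMSO and 2269, 2212 and 2212 with blebbistatin. For Stk4 and Sav1 each treated library lay below each DMSO library, but neither passed the test, with log2 changes of -0.07 and -0.05 and adjusted p-values from limma of 0.174 and 0.221. The groups of 9 of the 10 genes did not overlap, and nor did those of 60.2% of all genes tested. Merlin, encoded by Nf2, was higher, with 2705, 2857 and 2655 normalised counts with DMSO and 2948, 2999 and 3069 with blebbistatin. Its log2 change was 0.13 (SE 0.038, limma adjusted p = 0.0098).

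**Figure D1:**
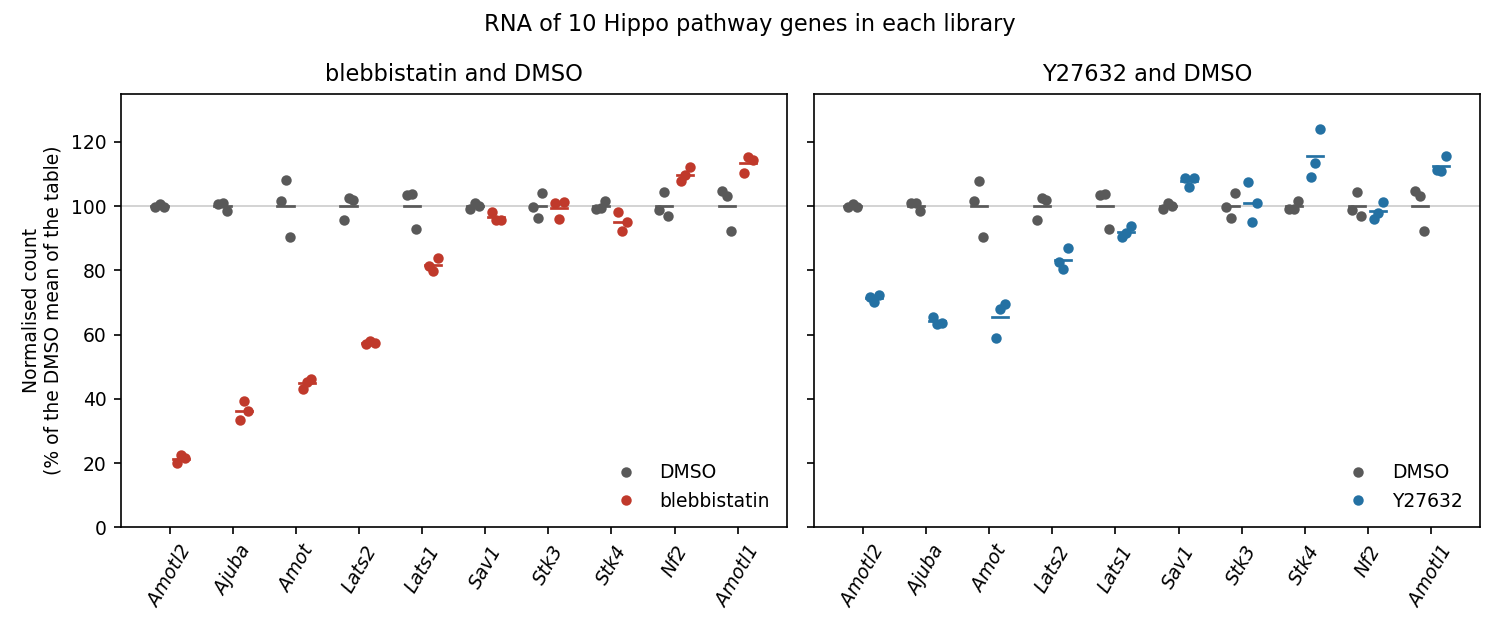
Normalised counts of the 10 genes in each RNA library, as a percentage of the DMSO mean of the same table; points are libraries and short lines are group means (n = 3). Amotl2 lies at 21.4% of the DMSO mean with blebbistatin and at 71.3% with Y27632, while Stk3 lies at 99.4% and 101%.

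Y27632 lowered the same 3 genes most, but by less, and it raised part of the core that blebbistatin had left uncalled. Ajuba, Amot, Amotl2, Lats2 and Lats1 were called lower, and Stk4, Amotl1 and Sav1 higher. That is 8 of the 10 genes, where 35.9% of the 14833 genes tested were called, 18.1% higher and 17.8% lower. The median log2 change of the 10 genes was -0.07, against 0.00 for all genes tested. None of the 10 fell by 1 or more on the log2 scale, as 0.937% of all genes tested did. The groups of 7 of the 10 did not overlap, and nor did those of 48.1% of all genes tested. The DMSO libraries are the same as in the blebbistatin comparison, so the 2 sets of changes are not independent, and their values differ between the tables because each table was normalised on its own. DESeq2 and the replicate block called 6 of the 10 genes, without Lats1 and Sav1.

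Among the angiomotins, Amotl2 had 22268, 22460 and 22263 normalised counts with DMSO and 15975, 15694 and 16120 with Y27632. It fell to 71.3% of the DMSO mean with no overlap (log2 change -0.49, SE 0.027, limma adjusted p = 3.47e-08). Amot had 3411, 3620 and 3032 normalised counts with DMSO and 1975, 2278 and 2331 with Y27632. The first of the treated libraries was the lowest, all of them lay below DMSO, and the log2 change was -0.61 (SE 0.067, limma adjusted p = 1.49e-05). Amotl1 had 9544, 9381 and 8392 normalised counts with DMSO and 10117, 10108 and 10522 with Y27632. It rose to 113% of the DMSO mean, with no overlap (log2 change 0.17, SE 0.043, limma adjusted p = 0.0075). The size of that rise rested in part on the lowest DMSO library, replicate 3, without which the log2 change was 0.11.

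Ajuba had 2562, 2563 and 2500 normalised counts with DMSO and 1665, 1609 and 1619 with Y27632, 64.2% of the DMSO mean. This was the lowest log2 change among the 10 genes under Y27632, at -0.64 (SE 0.035, limma adjusted p = 2.55e-08), and the groups did not overlap. Lats2 had 5649, 6052 and 6013 normalised counts with DMSO and 4882, 4742 and 5136 with Y27632. It fell by 0.26 on the log2 scale with no overlap (SE 0.038, limma adjusted p = 0.00016). Lats1 had 2802, 2807 and 2511 normalised counts with DMSO and 2445, 2479 and 2536 with Y27632. Here the groups overlapped, since the highest treated library passed the lowest DMSO library. The log2 change was -0.12 (SE 0.044, limma adjusted p = 0.0486), and the call was lost in 9 of the 15 alternative settings, with adjusted p-values of 0.0030 to 0.181 over all of them. It was 0.165 without DMSO replicate 1 and 0.181 without DMSO replicate 2, and 0.124, 0.107 and 0.0671 without Y27632 replicates 1, 2 and 3.

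In the Mst module, Stk4 had 1196, 1197 and 1226 normalised counts with DMSO and 1315, 1369 and 1496 with Y27632. All treated libraries were above DMSO, and they differed more among themselves than the DMSO libraries did (log2 change 0.21, SE 0.049, limma adjusted p = 0.0055). Sav1 had 2383, 2422 and 2404 normalised counts with DMSO and 2610, 2547 and 2612 with Y27632. It was higher by 0.11 on the log2 scale without overlap (SE 0.033, limma adjusted p = 0.0210), and the call was lost in 5 of 15 alternative settings, with adjusted p-values of 0.0138 to 0.0739. Without DMSO replicate 1 the adjusted p was 0.0552, without Y27632 replicate 1 it was 0.0646, and without Y27632 replicate 3 it was 0.0669. Stk3 and Nf2 were not called. Stk3 had 1513, 1461 and 1581 normalised counts with DMSO and 1633, 1442 and 1530 with Y27632, and Nf2 had 2812, 2966 and 2759 with DMSO and 2731, 2784 and 2878 with Y27632. Both genes overlapped between the groups, with limma adjusted p-values of 0.848 and 0.657.

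The span of Sav1 overlaps 4 other annotated genes in RefSeq, that of Lats2 overlaps 2, and those of Amotl1, Stk3 and Lats1 overlap 1 each. The longest of these overlaps is 10633 bp, of Stk3 with Gm52204. Whether the reads were counted by strand is not given in the sources used here, so a share of reads from such neighbours cannot be told apart.

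The treatments were compared with each other on reads scaled together over the 9 libraries, with edgeR's quasi-likelihood test. With blebbistatin, 7 of the 10 genes were lower than with Y27632 and Nf2 was higher, where 53.1% of 14941 genes were called, 26.9% higher and 26.2% lower. The groups of 8 of the 10 did not overlap, and nor did those of 60.6% of all genes. Only Amotl2 was called lower by at least 1 on the log2 scale, as were 1.95% of all genes. Amotl2 stood at 4906 ± 292 scaled counts with blebbistatin and 16349 ± 204 with Y27632 (SD, n = 3), a log2 difference of -1.72 (SE 0.036, edgeR adjusted p = 3.47e-13). Ajuba differed by -0.80 (SE 0.050, edgeR adjusted p = 1.02e-08), Amot by -0.53 (SE 0.068, edgeR adjusted p = 1.38e-05) and Lats2 by -0.52 (SE 0.036, edgeR adjusted p = 3.10e-08). Lats1 differed by less, at -0.16 (edgeR adjusted p = 0.0064).

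For Stk4 and Sav1 the log2 changes of the drugs lay on either side of DMSO, although only those under Y27632 had been called. Stk4 was at 1177 ± 31.6 scaled counts with blebbistatin and 1430 ± 90.5 with Y27632, a log2 difference of -0.27 (SE 0.048, edgeR adjusted p = 3.14e-04). Sav1 was at 2380 ± 32.4 and 2658 ± 38.0, a log2 difference of -0.15 (SE 0.031, edgeR adjusted p = 9.89e-04). Nf2 differed in the other direction, by 0.17 (SE 0.035, edgeR adjusted p = 0.0010).

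Amotl1 and Stk3 were not called between the drugs. The 95% confidence interval of the log2 difference was -0.07 to 0.11 for Amotl1 (edgeR adjusted p = 0.688) and -0.12 to 0.09 for Stk3 (edgeR adjusted p = 0.818).

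**Figure D2:**
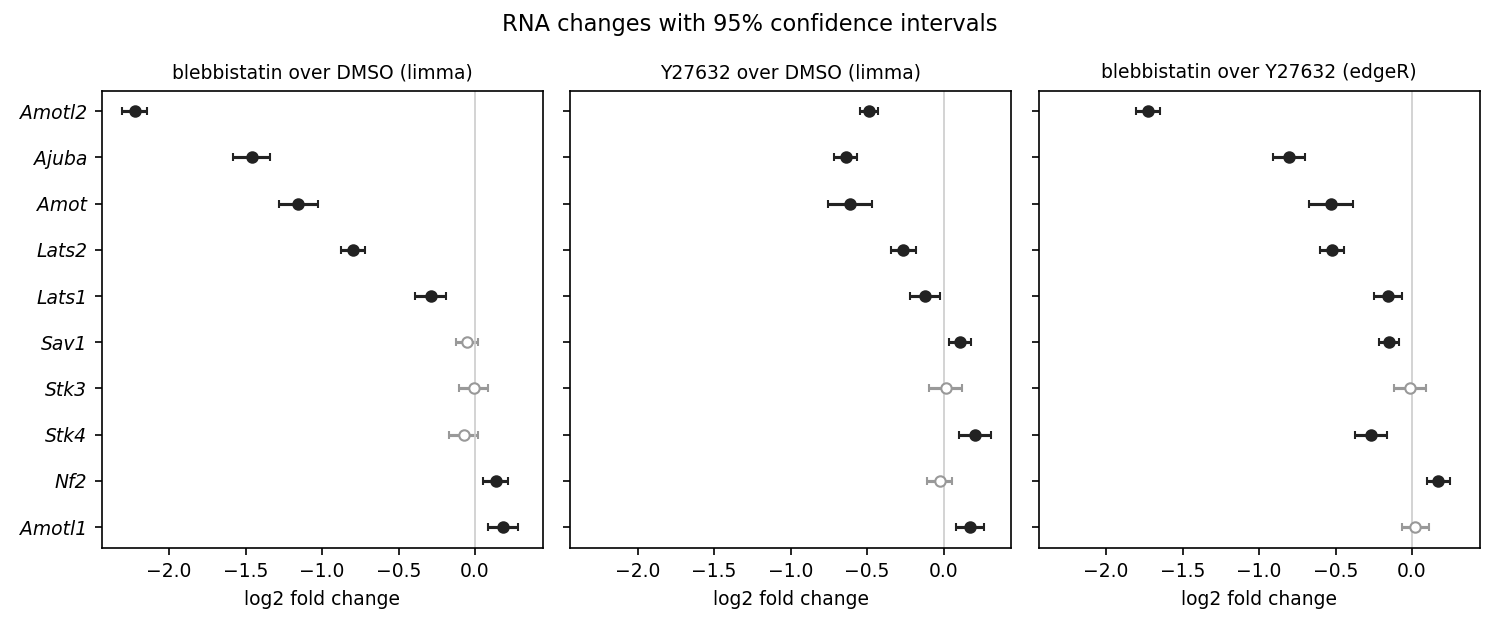
Log2 changes of the 10 genes in the 3 comparisons, with 95% confidence intervals; filled points had an adjusted p under 0.05 and open points did not. The intervals of Amotl2, Ajuba, Amot and Lats2 lie below 0 in each panel, from -2.23 for Amotl2 with blebbistatin over DMSO to -0.26 for Lats2 with Y27632 over DMSO.

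Ratios between paralogs within a library were compared as well. A ratio of reads of 2 genes depends on their lengths, so only its change between groups can be read. Amotl1 had 0.408 ± 0.027 reads per read of Amotl2 with DMSO, 0.643 ± 0.010 with Y27632 and 2.16 ± 0.07 with blebbistatin (SD, n = 3). The blebbistatin libraries, at 2.24, 2.10 and 2.15, thus lay above all others of the 9 in this ratio. Lats1 over Lats2 was 0.459 ± 0.039 with DMSO, 0.506 ± 0.015 with Y27632 and 0.651 ± 0.021 with blebbistatin. DMSO and Y27632 overlapped in this ratio, from 0.418 to 0.496 and from 0.494 to 0.523, while blebbistatin lay above both. For Amot over Amotl2 the ratio rose with blebbistatin, to 0.315 ± 0.010 from 0.15 ± 0.013, and was 0.138 ± 0.012 with Y27632, which overlapped DMSO. Stk4 over Stk3 was 0.795 ± 0.022 with DMSO, 0.760 ± 0.014 with blebbistatin and 0.911 ± 0.092 with Y27632. For this pair the blebbistatin libraries lay just below DMSO, and the Y27632 libraries overlapped it.

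**Figure D3:**
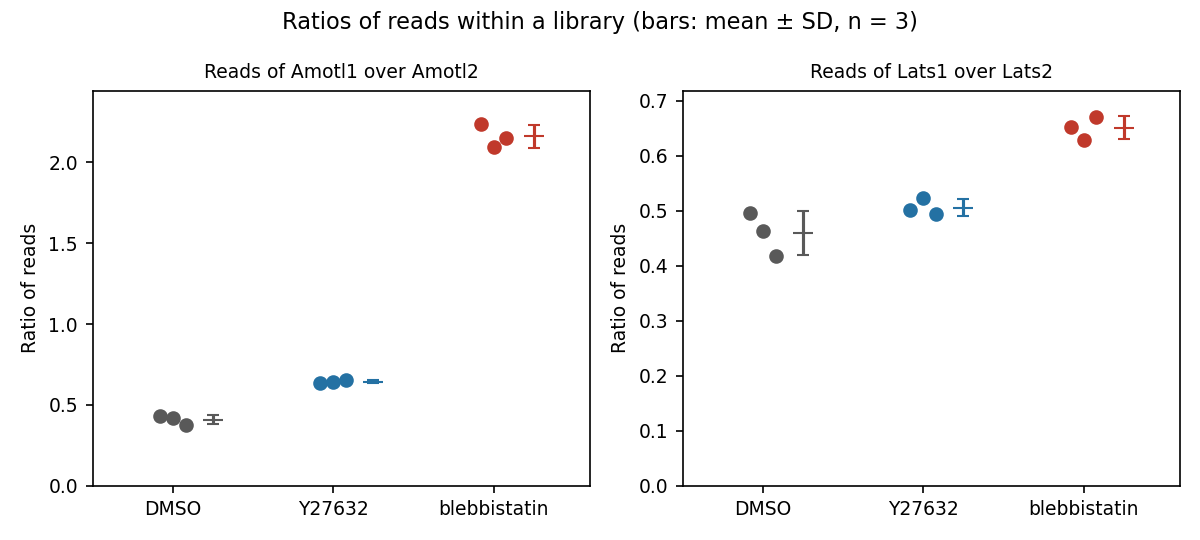
Ratio of reads of Amotl1 over Amotl2 (left) and of Lats1 over Lats2 (right) in each RNA library, with the mean ± SD of each group (n = 3). The mean Amotl1 ratio is 0.408 with DMSO, 0.643 with Y27632 and 2.16 with blebbistatin.

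Chromatin sites came from the authors' deposited lists, which give group means on a log2 scale and a log2 fold and FDR per site. Values of single libraries were not used here, and the sites therefore carry neither an SD nor a test. The sites were linked to genes by the authors' annotation to the nearest start, and coordinates are on mm10. The 22 sites fell at 17 places, 12 of the sites intergenic, 8 in introns, 1 in an exon and 1 at a promoter. The direction of these sites followed that of the lists as a whole. In the doxycycline experiment no listed site had an absolute log2 fold under 1, so smaller changes are absent there. In the ATAC lists the smallest was 1.24 with blebbistatin and 1.11 with Y27632. An Amot site of the list for blebbistatin with doxycycline had rank 33774 by p-value, though 6346 sites were listed. The shares of sites listed below are therefore not shares of sites that changed, and absence from a list does not show no change.

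With blebbistatin against DMSO, 3 of the 970 listed ATAC sites were annotated to these genes, all lower, in a list where 98.2% of the sites were lower. Listed sites were 1.54% of all sites tested, and those listed lower 1.52%. In the authors' deposited list, the intron 5 site of Amot (chrX:145468735-145469028) had a log2 fold of -2.22 (FDR 0.00043), at log2 means of 4.52 with blebbistatin and 6.74 with DMSO. The Amotl2 site 18085 bp upstream of its start (chr9:102699541-102699897) had -2.01 (FDR 0.0013), at 5.47 and 7.47. Both genes were also among those whose RNA fell most. A weaker Amotl2 site lay 27767 bp upstream (chr9:102689782-102690291), with -1.41 and an FDR of 0.0345. With Y27632 the authors' deposited ATAC list held 1 such site among 207, where 0.335% of the sites tested were listed and 0.285% listed lower. It lay 7664 bp upstream of Lats2 (chr14:57753617-57753957), with a log2 fold of -1.25 (FDR 0.0110). No site of Ajuba was in either ATAC list.

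The authors' deposited ATAC list for blebbistatin marks where a motif named for Tead lies in a site. The marked letters are shown for the Amot and Amotl2 sites, the only of these sites that carry a mark, with the core in capitals.
Amot intron 5 site: tGGAATGctt
Amotl2 upstream site, first mark: tGGAATTctt
Amotl2 upstream site, second mark: ataAATTCCa
The Amot mark holds the same GGAATG as the upstream windows above, and the Amotl2 marks hold GGAATT or its reverse complement AATTCC. Such marks were common in that list, in 603 of 970 sites (62.2%), and 2 of the 3 sites annotated to these genes carried one.

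In the doxycycline experiment, blebbistatin alone gave 3 of 1231 listed sites, all lower, in a list with 99.0% lower, 1.78% of the sites tested listed and 1.77% listed lower. All 3 overlapped places already seen in the ATAC experiment. The authors' deposited log2 folds were -1.66 for the Amotl2 site 18101 bp upstream (FDR 1.28e-05), -1.22 for the Amot intron 5 site (FDR 0.0049) and -1.13 for the Lats2 site 7721 bp upstream (FDR 0.0017). The first 2 matched sites of the ATAC blebbistatin list, and the Lats2 site lay within the ATAC Y27632 site. The DMSO group and the group with neither drug are different libraries, so these lists share none.

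Doxycycline alone gave 11 of 7613 listed sites, spread over 6 of the 10 genes and all higher, in a list with 95.8% higher and with 9.36% of the sites tested listed, 8.97% higher. Its reference column is headed as the blebbistatin group without doxycycline but was read as the group with neither drug. At 13 sites shared with the blebbistatin list it lay -0.13 on average (SD 0.0044) from the values with neither drug and 1.12 (SD 0.184) from those of the group in its heading. Amotl2 held 2 neighbouring sites near its start, among the lowest p-values of that list. In the authors' deposited list the site 2149 bp upstream (chr9:102715559-102715751) had a log2 fold of 2.06 (FDR 1.21e-21, rank 8 by p-value), and that 2579 bp upstream (chr9:102715097-102715353) had 2.04 (FDR 1.06e-17, rank 16). They were not the Amotl2 sites that were lower with blebbistatin, which lie farther upstream.

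Other places with doxycycline included the promoter of Ajuba (chr14:54577455-54577720), with a deposited log2 fold of 1.09 (FDR 6.53e-06). This site overlaps the Ajuba window printed above by 59 bp but holds neither of its motifs. A second Ajuba site, in intron 1 (chr14:54575662-54575983), had 1.34 (FDR 4.89e-09). Intron 1 of Stk4 (chr2:164077054-164077327) had 1.72 (FDR 1.17e-10), and an intergenic site 95111 bp upstream of Amot (chrX:145582703-145582796) had 2.07 (FDR 1.49e-05). Sites of Amotl1, Sav1 and the farthest Amotl2 site were between 1.01 and 1.35. Lats2, which had sites in the blebbistatin lists, had none in this list.

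Adding blebbistatin to doxycycline gave 4 of 6346 listed sites, all lower, in a list with 99.8% lower, 8.75% of the sites tested listed and 8.73% listed lower. The reference of this list is the doxycycline group that is the treated group of the list before, so the 2 lists share libraries. In the authors' deposited lists, the site 95111 bp upstream of Amot had a log2 mean of 2.83 with neither drug, 4.90 with doxycycline and 3.91 with doxycycline and blebbistatin. A site annotated to Sav1 (chr12:70044494-70044617), which lies in intron 17 of the neighbouring gene Nin, had 4.26, 5.26 and 3.86. These are the only 2 of the 17 places in both lists, and the shared group fixes part of the opposite signs. Each was near the limits in 1 of the lists. The Amot site had a log2 fold of -1.0 (FDR 0.0107) when blebbistatin was added. The Sav1 site had 1.01 (FDR 0.0106) with doxycycline. The other 2 sites of this list were in intron 6 of Amotl1 (chr9:14568595-14568806), with a log2 fold of -1.26 (FDR 1.94e-05), and 3422 bp upstream of Lats2 (chr14:57749465-57749625), with -1.07 (FDR 7.42e-06).

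**Figure D4:**
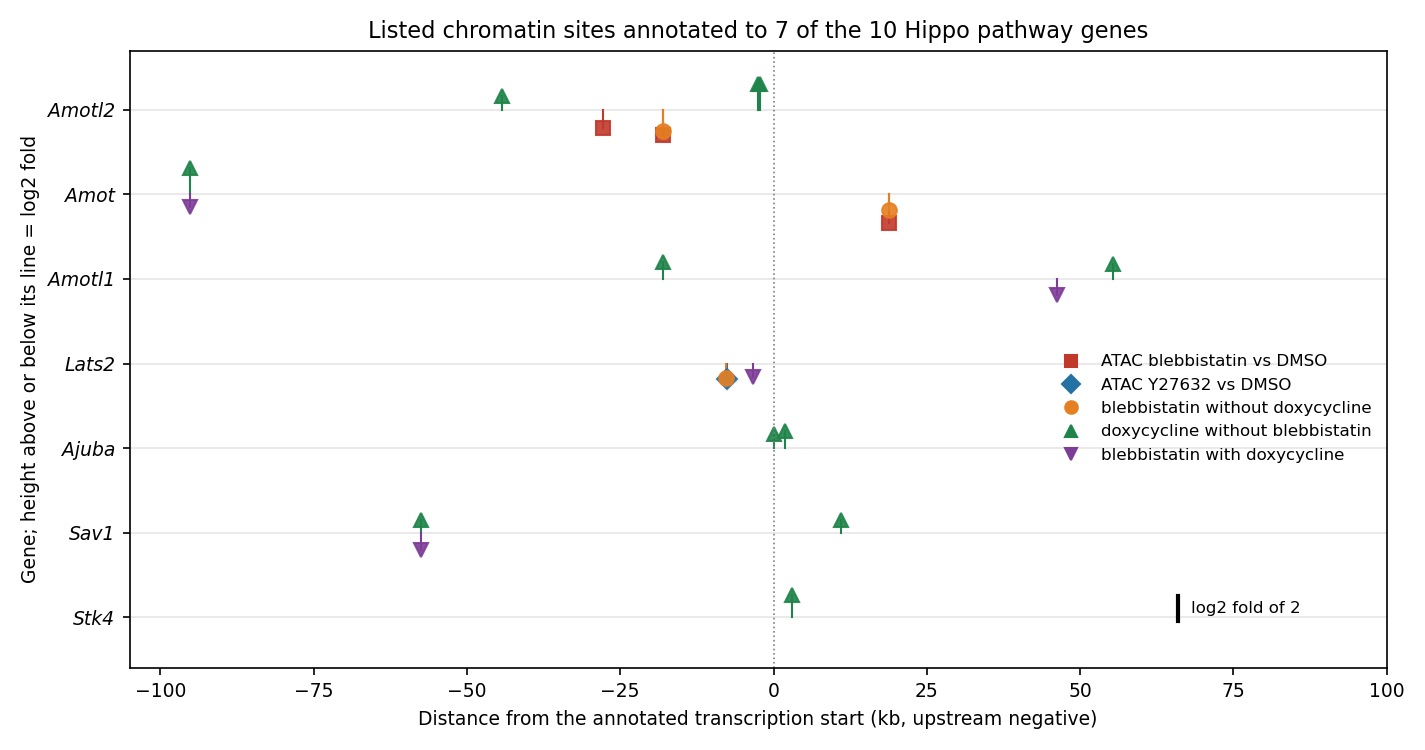
The 22 listed sites annotated to 7 of the genes, by distance from the annotated start in kb; height above or below a gene's line is the authors' log2 fold, with a scale bar of 2. All 11 sites of the doxycycline list point up and the 11 sites of the other lists point down.

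Of 100 other genes of the Hippo pathway, 95 were tested with blebbistatin and 66 were called (69.5%), 18 higher and 48 lower, with a median log2 change of -0.13. With Y27632, 37 of 94 were called (39.4%), 16 higher and 21 lower, with a median of 0.02. Between the drugs, 67 of 94 were called, 15 higher and 52 lower with blebbistatin. The shares called among all genes were 53.0%, 35.9% and 53.1%. By direction, 26.1% of all genes were called higher and 26.9% lower with blebbistatin, and 18.1% and 17.8% with Y27632. Between the drugs, 26.9% were higher and 26.2% lower with blebbistatin. These shares are also those to set beside the counts by direction of the role lists below.

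Against DMSO, Tead factors and their Vgll cofactors held the lowest median of the 6 role lists under each drug. With blebbistatin all 6 that were tested were called, 4 lower and 2 higher, with a median of -1.003, where 53.0% of all genes were called. Vgll3, a Tead cofactor, fell by 1.46 on the log2 scale (SE 0.030, limma adjusted p = 4.41e-12) and Tead3 by 1.16 (SE 0.045, limma adjusted p = 6.97e-10). Vgll4, which competes with Yap for Tead, rose by 0.67, and Tead2 rose by 0.43. With Y27632, 5 of 6 were called, 4 lower and 1 higher, where 35.9% of all genes were called. Tead4 fell by 0.94 (SE 0.107, limma adjusted p = 2.09e-05) and Tead3 by 0.72, and Tead2 rose by 0.23.

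Wwtr1, which encodes Taz, rose by 0.33 with blebbistatin (limma adjusted p = 2.52e-06) and by 0.22 with Y27632 (limma adjusted p = 2.93e-04). Yap1 rose by 0.13 with blebbistatin (limma adjusted p = 0.0061), while with Y27632 its log2 change of 0.03 was not called (limma adjusted p = 0.462). The role list for the handling of Yap and Taz holds 12 genes, Yap1 and Wwtr1 among them. Of the 12, 7 were called under each drug, 3 higher and 4 lower with blebbistatin and 5 higher and 2 lower with Y27632. That is 58.3%, close to the 53.0% of all genes called with blebbistatin and above the 35.9% with Y27632. Ywhae, which encodes a phosphoserine-binding protein that can hold Yap in the cytoplasm, fell by 0.38 with blebbistatin and by 0.19 with Y27632.

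Among 22 LIM proteins, ubiquitin ligases and other partners, blebbistatin lowered 13 and raised 5, and Y27632 lowered 8 and raised none. The shares called were 81.8% and 36.4%, against 53.0% and 35.9% of all genes. The count with Y27632 in either direction is thus that of the background. Its direction is not, since all 8 calls were lower, where 17.8% of all genes were called lower and 18.1% higher. Zyx (zyxin), a LIM protein of focal adhesions, fell by 0.85 and Siah2, a ubiquitin ligase known to act on Lats2, by 1.07 with blebbistatin. Nedd4l, a ligase of the family that acts on angiomotins and Lats, rose by 0.81, and Wtip, a relative of Ajuba, rose by 0.44 while Ajuba fell. With Y27632, Mpdz, a junctional scaffold, fell by 0.38 and the phosphatase Ptpn21 by 0.35.

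Of 26 upstream regulators tested with blebbistatin, 14 were called lower and 4 higher, 69.2% in all against 53.0% of all genes. The large cadherins Fat1 and Fat4 fell by 1.37 and 1.13, and Dchs1, the ligand of Fat4, rose by 0.47. With Y27632, 5 of 25 were lower and 4 higher, 36% in all and thus near the background of 35.9%, with Fat1 falling by 0.59 and Frmd6, a partner of Merlin, rising by 0.30. With blebbistatin Frmd6 went the other way and fell by 0.66 (limma adjusted p = 2.71e-09). Fat4 was not called with Y27632 (log2 change -0.04, limma adjusted p = 0.817). The 14 kinases that act on Lats or beside it were split under blebbistatin, 3 higher and 4 lower, and with Y27632 5 were higher and 1 lower. The shares called, 50% and 42.9%, were near those of all genes. Among the Map4k kinases, which phosphorylate Lats in parallel to Mst, Map4k4 rose by 0.69 and by 0.28 with the 2 drugs, and Map4k3 fell by 0.93 and by 0.16. Of 15 genes of STRIPAK, the phosphatase complex that acts against Mst, blebbistatin lowered 9, Strn3 most at -0.54, and raised 1, Cttnbp2nl, by 0.22. That is 66.7% called, against 53.0% of all genes. Y27632 lowered 1 of the 15, Strn3, at -0.18, and raised 1, Cttnbp2nl, by 0.28, so that 13.3% of this list was called, against 35.9% of all genes. Calls and directions of the role lists are described by these counts alone.

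**Figure D5:**
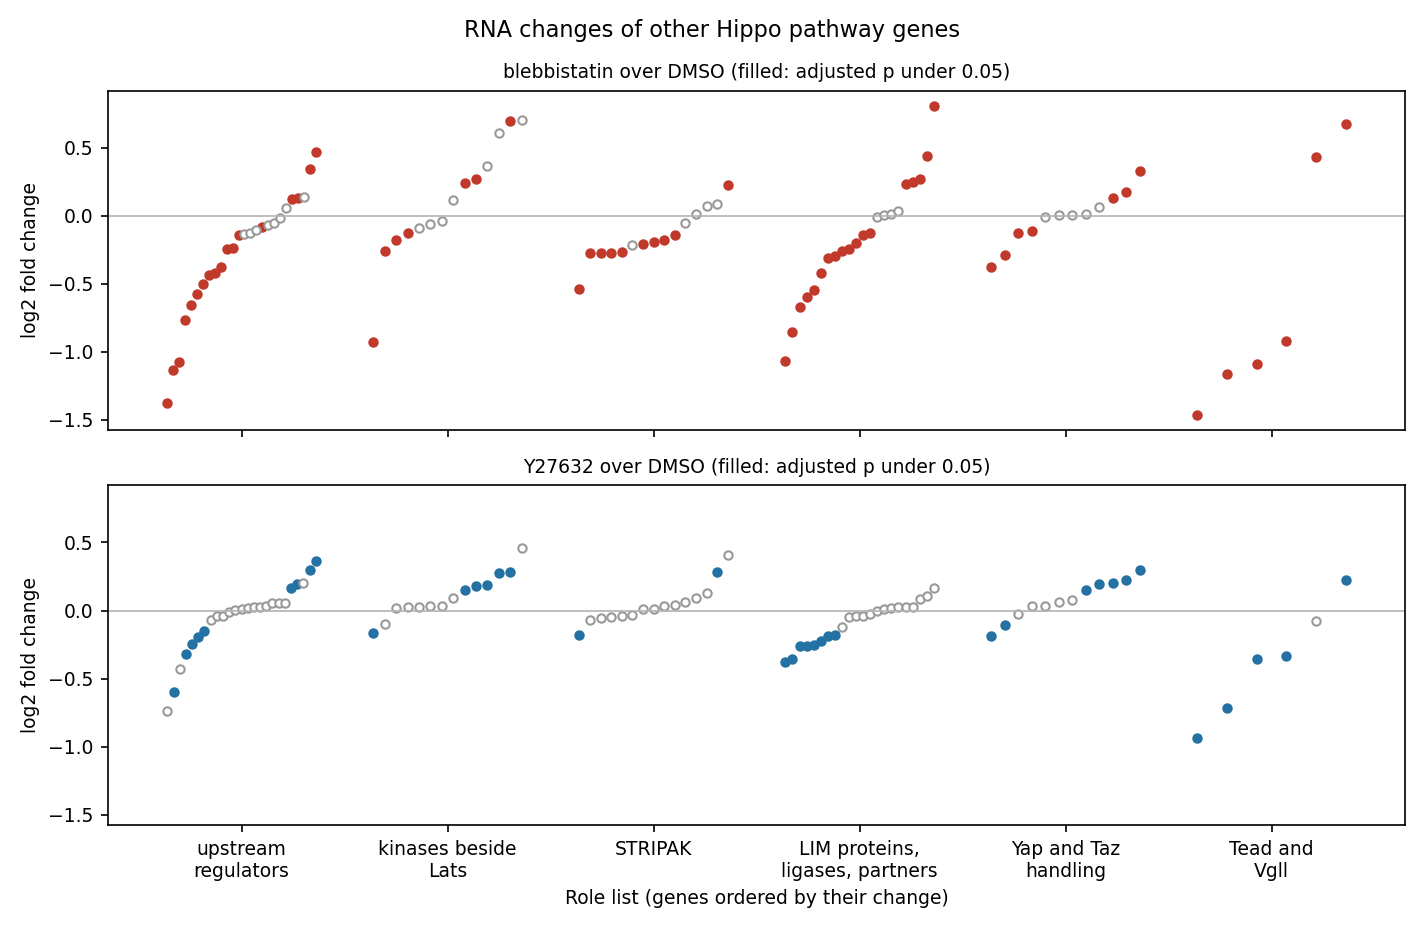
Log2 changes of the other Hippo pathway genes that were tested, by role list, with blebbistatin (top) and Y27632 (bottom) over DMSO; filled points had an adjusted p under 0.05. The lowest point of the upper panel is Vgll3 at -1.46.

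The genes whose level followed these most closely over the 9 RNA libraries were found among 11460 others by Pearson correlation of log2 scaled counts. The 9 points are 3 groups of 3 and share their libraries, so r mostly reflects the 3 group means. For Amotl2 they were Mid1 (r = 0.9993), Ptx3 (0.9991) and Vgll3 (0.9989). The log2 changes of Mid1 were -1.63 with blebbistatin and -0.37 with Y27632, and those of Ptx3 were -2.86 and -0.69. For Lats2 they were Hnrnpab (0.9978), Strn3 (0.9978) and Pdgfd (0.9977), for Ajuba Fbln5 (0.9963), Dse (0.9961) and Gca (0.9958), and for Amot Crim1 (0.9961), Arhgef10 (0.9952) and Cubn (0.9948). The closest matches of Amotl1 and Lats1 had lower r, L3mbtl3 at 0.9676 and Usp24 at 0.9858.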

How the data were processed

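RNA was measured in 9 libraries and chromatin sites in 21. The deposited RNA signal is a normalised count: the authors divided the reads of a library by its size factor, in 2 separately normalised tables, as worked out from the values. At a tolerance of 0.01, 100% of the values came out as whole reads, and the DMSO reads were identical in both tables. The submitters' processing notes name HISAT2, Picard, featureCounts, DESeq2, Bowtie2, SAMtools, MACS2, DiffBind, HOMER and mm10, with no role. The log2 fold, p-value and FDR columns of the RNA tables and site lists are the authors', per the file headers.

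Each treatment was tested against DMSO by limma's moderated test with a trend (limma 3.58.1, R 4.3.3). The fit used log2(normalised count + 1), which understates changes of low genes, and genes averaging 10 or more. Calls were made below 0.05 after Benjamini-Hochberg adjustment over all genes tested. For the drugs against each other, edgeR 4.0.16 with TMM scaling and the quasi-likelihood test was run on the recovered reads. On those reads edgeR called 7924 genes with blebbistatin and 5354 with Y27632, against 7894 and 5328 with limma. The scripts were tested on simulated data. Alternatives were another pseudocount, filter, scaling, edgeR, DESeq2 1.42.0, a replicate block and each replicate left out.

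The genes and lists were chosen with earlier results of these data known. Of the wider list, up to 2 highest and 2 lowest called genes per role list and treatment may be named, if they average 100 or more and their groups do not overlap, and Yap1 and Wwtr1 always. Site positions were used as deposited, and shared sites overlap by at least 1 bp. The numbers of sites tested were worked out from the deposited p-values, FDRs and ranks. All 22 deposited distances lay within 50 bp of the distance worked out from a RefSeq start (GRCm38.p6).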

Additional observations from a re-analysis of the deposited data

How the results depend on the processing

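The count of the 10 genes called was 7 with blebbistatin and 8 between the drugs under every alternative run, and 6 to 8 with Y27632. Of the values of single genes under the alternatives, 439 kept direction and side of the threshold, 14 lost the call (Lats1 and Sav1 with Y27632, as given above) and 7 changed sign, all of genes not called. Leaving out 1 library moved the log2 change of Stk3 between -0.036 and 0.020 with blebbistatin, between -0.031 and 0.059 with Y27632 and between -0.058 and 0.036 between the drugs, and that of Nf2 between -0.046 and 0.0062 with Y27632. At an FDR of at most 0.01 the Y27632 ATAC list held 0 sites of these genes instead of 1, since its Lats2 site has an FDR of 0.0110. The same cut removed the Amotl2 site 27767 bp upstream from the blebbistatin ATAC list (FDR 0.0345). It also removed the Sav1 site in Nin from the doxycycline list (FDR 0.0106). From the list for blebbistatin with doxycycline it removed the Amot site 95111 bp upstream (FDR 0.0107). Neither place found in both of these last lists then stayed in both. The cause of the other changes was not tested.

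Same-numbered replicates did not deviate together (r of -0.203 to 0.0885 over 9 pairs), and pairs with other numbers had r of -0.248 to 0.182. With 3 libraries per group, such values cannot show whether libraries of the same number were made together. The main tests used no block. With a replicate block, 7, 6 and 8 of the 10 genes were called with blebbistatin, with Y27632 and between the drugs, and 63, 36 and 64 of the wider list. Over all genes the block called 7604, 4633 and 7699. The 10 genes had 789 to 21573 reads in a library.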

Other observations

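Sites annotated to the wider list of Hippo pathway genes mostly pointed the same way as the lists they came from. In the authors' deposited lists these were 19 ATAC sites with blebbistatin and 2 with Y27632, all lower. In the doxycycline experiment they were 15 with blebbistatin alone, all lower, and 58 with blebbistatin added to doxycycline, all lower. With doxycycline there were 70, 65 higher and 5 lower, in a list with 95.8% higher and 4.15% lower. Of the 5 lower sites, 2 were annotated to Yap1, at log2 folds of -1.67 and -1.62. Vgll3, whose RNA was among those most like Amotl2, had 4 ATAC sites lower with blebbistatin, at log2 folds of -1.87 to -1.69, and 3 lower with blebbistatin alone in the doxycycline experiment, at -1.12 to -1.04. Fat1 had 6 sites higher with doxycycline, at 1.03 to 1.43, and 5 lower when blebbistatin was added, at -1.29 to -1.04, in lists that share the doxycycline group. Map4k3 had 3 ATAC sites lower with blebbistatin, at -1.94 to -1.36. These genes were chosen after their values were seen, Yap1 for its lower sites and the others as those with the most sites or with sites in several lists.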
